A study of Mus musculus with 10 samples.

Results

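Neutrophil genes were followed in mouse sarcomas of 2 genetic models. They were S100a8, S100a9, Csf3r, Csf3, Mpo, Elane, Ltf, Camp, Ngp and Retnlg. These 10 genes were chosen by name, as the rows of the count table whose Ensembl identifiers carry those symbols, out of 56750 features in all. All 10 passed the filter on low counts, which kept 24743 features.

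The sarcomas came from 2 models. The dFLEx group held 3 tumors (170019, 170024 and 170025) of genotype dFLEx CDS +/-. In these mice a CIC::DUX4 fusion, under the CAG promoter in the Rosa26 locus, is assembled only where both Cre and FLP recombinases act. Plasmids encoding Cre and FLPE were electroporated into the gastrocnemius muscle of mice aged 6 to 12 weeks, so the recombined cells are those of the injected limb that took up both plasmids. The KP group held 2 tumors (3800 and 3802) of the KP model, whose genotype includes p53fl/fl, so that Cre deletes p53. The sources used here give neither the ages of the KP mice nor where in the body their sarcomas grew, and do not say whether each tumor came from its own mouse. No tumor is labelled with a drug treatment. RNA of each frozen tumor was split into 2 duplicates before library construction, so the tumor, with its duplicates summed, was the unit compared, and KP tumor 3802 is represented here by 1 library.

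Neutrophils are made in the bone marrow, where precursors fill their granules in sequence. Mpo and Elane belong to the primary granules of promyelocytes, Ltf, Camp and Ngp to the secondary granules of myelocytes and metamyelocytes, while S100a8, S100a9 and Retnlg transcripts persist in mature cells. G-CSF, the product of Csf3, drives this output through its receptor, encoded by Csf3r, and in tumor-bearing mice it is known for expanding and mobilizing immature neutrophils.

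The sequences just upstream of the RefSeq start sites of 6 of the genes are shown. These 6 were picked because the first 5 were highest in 170024, next in 3802 and lowest in 3800, and the sixth, Csf3r, was not. The windows are the 250 bases before each RefSeq start site (GRCm38.p6), with positions found by exact match to GRCm39, the build of the count table. Except for S100a9, each window shown partly overlaps its gene as annotated in the count table, where the gene begins further upstream. A RefSeq window was matched for 9 of the 10 genes, all except Csf3. Capitals mark every TTNNGNAA, the letters of a C/EBP-type site, and every GAGGAA, the letters of a PU.1-type site, on either strand.
S100a8, chr3:90576128-90576377, plus strand: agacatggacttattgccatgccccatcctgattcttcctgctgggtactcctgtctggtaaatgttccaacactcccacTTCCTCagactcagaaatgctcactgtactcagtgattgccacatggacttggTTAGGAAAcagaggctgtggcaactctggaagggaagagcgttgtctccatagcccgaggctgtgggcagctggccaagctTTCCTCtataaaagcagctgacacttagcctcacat
S100a9, chr3:90603029-90603278, minus strand: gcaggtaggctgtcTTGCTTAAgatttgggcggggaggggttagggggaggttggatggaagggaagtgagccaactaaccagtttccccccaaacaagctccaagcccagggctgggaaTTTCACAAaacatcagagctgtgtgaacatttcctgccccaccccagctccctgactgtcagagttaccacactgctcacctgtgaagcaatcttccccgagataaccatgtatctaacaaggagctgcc
Ltf, chr9:110848110-110848359, plus strand: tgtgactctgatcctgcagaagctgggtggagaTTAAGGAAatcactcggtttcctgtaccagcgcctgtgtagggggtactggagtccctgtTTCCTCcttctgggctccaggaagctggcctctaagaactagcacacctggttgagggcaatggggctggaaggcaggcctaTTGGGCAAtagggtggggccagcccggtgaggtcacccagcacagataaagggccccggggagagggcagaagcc
Camp, chr9:109678525-109678774, minus strand: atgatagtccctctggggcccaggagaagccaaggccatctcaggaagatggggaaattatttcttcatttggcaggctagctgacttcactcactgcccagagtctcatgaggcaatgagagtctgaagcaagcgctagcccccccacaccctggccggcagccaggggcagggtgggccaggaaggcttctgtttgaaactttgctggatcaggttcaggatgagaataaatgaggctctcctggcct
Ngp, chr9:110248626-110248875, plus strand: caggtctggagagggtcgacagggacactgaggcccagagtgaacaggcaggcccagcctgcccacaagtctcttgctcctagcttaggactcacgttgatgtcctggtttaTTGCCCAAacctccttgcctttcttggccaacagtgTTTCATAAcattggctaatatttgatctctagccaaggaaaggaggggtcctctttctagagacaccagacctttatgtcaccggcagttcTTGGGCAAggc
Csf3r, chr4:125918202-125918451, plus strand: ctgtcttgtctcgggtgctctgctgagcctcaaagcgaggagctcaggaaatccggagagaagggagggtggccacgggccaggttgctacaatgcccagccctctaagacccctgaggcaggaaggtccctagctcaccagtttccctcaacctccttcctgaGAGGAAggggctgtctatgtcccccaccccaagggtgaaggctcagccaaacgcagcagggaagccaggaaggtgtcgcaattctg
Ngp had 3 TTNNGNAA matches, Ltf had 2 and S100a9 had 2. S100a8 had 1 TTNNGNAA and 2 GAGGAA matches, whereas Camp had neither and Csf3r had only 1 GAGGAA. Elane and Retnlg, not shown, were likewise highest in 170024, next in 3802 and lowest in 3800. Elane had only 1 GAGGAA and Retnlg only 1 TTNNGNAA. At least 1 TTNNGNAA lay in 5 of the 9 windows, and GAGGAA in 5 of 9. Over the same 250 bases of 27018 RefSeq promoters, 36.9% held TTNNGNAA and 23.1% held GAGGAA. A match describes letters only and was not tied to binding.

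Depth ranged from 20503474 counts in tumor 3802 to 82138251 in tumor 170025. A count of 0 therefore allows up to 3 counts, which is 0.0378 to 0.122 CPM (reads scaled to library size), and this limit covers counting error only. It treats counts as independent, although the mates of a read pair were counted singly, so the true limit can be higher. CIC::DUX4 itself had 2026 to 18828 counts in each dFLEx library and 0 to 6 in each KP library, as labelled. Library 3802 stood apart from the others before any neutrophil gene was considered: 2007 olfactory and vomeronasal receptor genes, which sarcomas are not known to use, summed to 774 CPM there against 16.2 to 122 CPM in the other 4 tumors. These sums were scaled to library totals, without the TMM scaling used for the gene levels below. Tumor 170024 stood apart in another way, with the highest level of all 7 skeletal muscle genes examined. The group comparison of the 10 genes is therefore given with and without each of these tumors, as are some of the list medians.

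No neutrophil gene differed between the groups beyond the spread among tumors. With edgeR's quasi-likelihood test on tumor sums, 0 of the 10 passed an adjusted p of 0.05, against 0.182% of all genes tested, and 0 of the 10 had an unadjusted p under 0.05, against 10.6% of all genes tested. DESeq2 on the same sums gave an adjusted p to 9 of the 10 and called 0 of them, against 6.25% of all genes with an adjusted p. The fitted log2 fold change of dFLEx over KP was above 0 for 8 genes and below 0 for 2, with standard errors of 0.78 to 2.35 and a median of 0.83, where the median over all tested genes was -0.18. None of the 10 was higher in every dFLEx tumor than in both KP tumors, a pattern that 13.7% of tested genes showed. Likewise none was lower in every dFLEx tumor, against 11.7% of tested genes.

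What the data show instead is a large difference between tumors of the same model. Summed over the 10 genes, the level was 92.2 CPM in dFLEx tumor 170024, 14.1 CPM in 170025 and 8.73 CPM in 170019. In the KP group it was 47.1 CPM in tumor 3802 and 6.85 CPM in 3800. One tumor in each group was thus several-fold above its partners. In these sums the lowest dFLEx tumor lay close to the lowest KP tumor, but Csf3r weighed unequally in them. It made up 5.20 of the 6.85 CPM in 3800 and 1.37 of the 8.73 CPM in 170019. Of the 10 genes, 7 had their highest level in 170024, where 8.16% of all tested genes were highest, and the same 7 had their lowest level in 3800. In bulk RNA, more neutrophils and more neutrophil RNA per cell cannot be told apart.

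**Figure D1:**
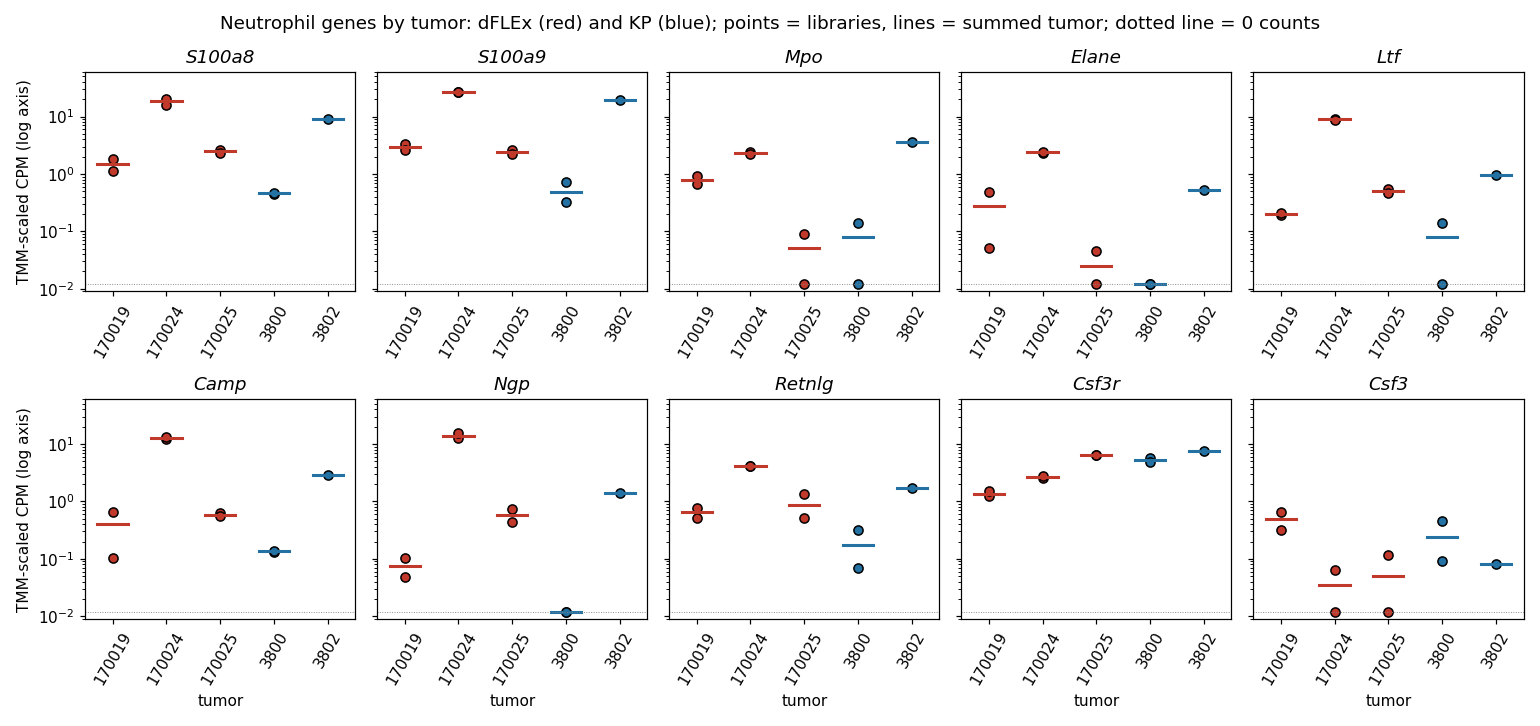
Level of each neutrophil gene in every library, as TMM-scaled CPM on a log axis, for 3 dFLEx tumors (red) and 2 KP tumors (blue). Points are libraries, horizontal lines are tumors after their libraries were summed, and points on the dotted line had 0 counts; tumor 170024 reached 27.1 CPM for S100a9, while Csf3r was highest in 3802 at 7.44 CPM.

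S100a8 and S100a9 encode the subunits of calprotectin, the most abundant cytosolic protein of neutrophils, and lie next to each other on chromosome 3 (90576285 to 90577342 on the plus strand and 90599939 to 90603028 on the minus strand). S100a8 was at 1.49, 18.4 and 2.47 CPM in dFLEx tumors 170019, 170024 and 170025, and at 0.457 and 9.22 CPM in KP tumors 3800 and 3802. S100a9 was at 2.99, 27.1 and 2.42 CPM in the same dFLEx tumors, and at 0.484 and 19.4 CPM in the KP tumors. Both genes were high in 170024 and 3802 and low in the other tumors, so the groups overlapped. Group means of S100a8 were 7.44 ± 9.47 CPM in dFLEx (SD, n = 3) and 4.84 ± 6.20 CPM in KP (SD, n = 2). S100a8 had a log2 fold change of 0.63 ± 1.39 (SE), with an edgeR adjusted p of 0.949. For S100a9 it was 0.13 ± 1.47, with an edgeR adjusted p of 0.990, and its sign turned to -0.22 when library totals replaced TMM scaling. Duplicates of S100a9 differed by 1.00-fold in 170024 and by 2.21-fold in 3800, where the libraries held 22 and 14 counts. Tumors 170019 and 170025 were near neighbours for S100a9, with libraries at 2.60 to 3.34 CPM and 2.22 to 2.57 CPM.

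The secondary granule genes Ltf, Camp and Ngp lie on chromosome 9, between positions 109676447 and 110871835. Ltf encodes the iron-binding protein lactoferrin. Its level was 0.199, 8.89 and 0.504 CPM in the dFLEx tumors in the order above, and 0.0806 and 0.975 CPM in the KP tumors. Camp encodes the cathelicidin antimicrobial peptide. It was measured at 0.398, 12.5 and 0.592 CPM in dFLEx and at 0.134 and 2.84 CPM in KP. Ngp, neutrophilic granule protein, was at 0.0746, 13.9 and 0.579 CPM in dFLEx. In KP it had 0 counts in 3800, which allows up to 0.0403 CPM, and stood at 1.38 CPM in 3802. For each of the 3 genes tumor 170024 was the highest of all 5, by 9.12-fold (Ltf), 4.40-fold (Camp) and 10.0-fold (Ngp) over the next tumor, which was 3802. Within the dFLEx group, 170024 exceeded the next tumor by 17.6-fold for Ltf, 21.2-fold for Camp and 23.9-fold for Ngp. Ngp in 170024 was 344-fold above a level of 3 counts in KP tumor 3800. Since mates were counted singly, that fold is not a strict lower bound.

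Between the groups, the log2 fold change was 2.65 ± 1.80 (SE) for Ltf, and its edgeR adjusted p of 0.772 was the lowest of the 10 genes. For Ngp it was 2.86 ± 2.35, with an edgeR adjusted p of 0.835. Camp had a log2 fold change of 1.62 ± 1.73 and an edgeR adjusted p of 0.885. Group means of Ngp were 4.84 ± 7.81 CPM in dFLEx (SD, n = 3) and 0.691 ± 0.977 CPM in KP (SD, n = 2), so the SD exceeded the mean in both. Without tumor 170024 the 3 estimates turned to -0.65, -1.17 and -1.65 for Ltf, Ngp and Camp, and their positive sign rested on that tumor.

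Among the primary granule genes, Elane encodes neutrophil elastase and Mpo encodes myeloperoxidase. Elane was at 0.274, 2.39 and 0.0252 CPM in dFLEx tumors 170019, 170024 and 170025. In KP it had 0 counts in 3800 and stood at 0.528 CPM in 3802. It followed the secondary granule genes in being highest in 170024, at 4.53-fold over 3802, but unlike them it was higher in 170019 than in 170025, where 2 counts were found. In 170019, however, 10 of the 11 Elane counts came from 1 of the duplicates. Mpo was at 0.796, 2.31 and 0.0504 CPM in dFLEx and at 0.0806 and 3.53 CPM in KP. Mpo was the only granule gene of the 10 that was higher in 3802 than in 170024, and the ratio of 170024 to 3802 was 0.652 for Mpo against 4.53 for Elane. The log2 fold change was 1.82 ± 2.22 (SE) for Elane, with an edgeR adjusted p of 0.899. For Mpo it was -0.77 ± 1.64, with an edgeR adjusted p of 0.947. Exons of Mpo share 512 of their 3424 bases with an antisense feature, Gm11505. The other 9 genes share none with any annotated feature.

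Retnlg, a resistin-like gene of mature neutrophils, was at 0.647, 4.13 and 0.869 CPM in dFLEx and at 0.175 and 1.71 CPM in KP. Its order of tumors was that of S100a8, but its range from the highest to the lowest tumor was narrower, 23.6-fold against 40.2-fold. The lowest Retnlg level, in 3800, rested on duplicates of 10 and 3 counts that differed by 4.68-fold. The log2 fold change was 1.02 ± 1.28 (SE), with an edgeR adjusted p of 0.899. Retnlg also had the widest gap between duplicates among the 18 pairs with at least 20 counts in both, 2.58-fold in tumor 170025. The median gap over those pairs was 1.14-fold, which is small beside the differences between tumors.

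Csf3r, the G-CSF receptor, did not follow the granule genes. It was at 1.37, 2.67 and 6.55 CPM in dFLEx tumors 170019, 170024 and 170025, and at 5.20 and 7.44 CPM in KP tumors 3800 and 3802. Tumor 3800, lowest for 7 of the other genes, had more Csf3r than 170024, and the whole range over the 5 tumors was 5.44-fold. The neighbours 170025 and 3800 differed little, with libraries at 6.53 to 6.57 CPM and 4.88 to 5.65 CPM. The log2 fold change was -0.84 ± 0.78 (SE), with an edgeR adjusted p of 0.865, and it stayed below 0 with either 170024 or 3802 left out. Csf3, the ligand, was scarce in every tumor. It had 20, 2 and 4 counts in the dFLEx tumors and 18 and 2 counts in the KP tumors, or 0.497, 0.0347, 0.0504, 0.242 and 0.0813 CPM. Neither tumor with high granule genes had more than 2 Csf3 counts. The log2 fold change of Csf3 was 0.22 ± 1.83, with an edgeR adjusted p of 0.987, and library totals turned it to -0.12.

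**Figure D2:**
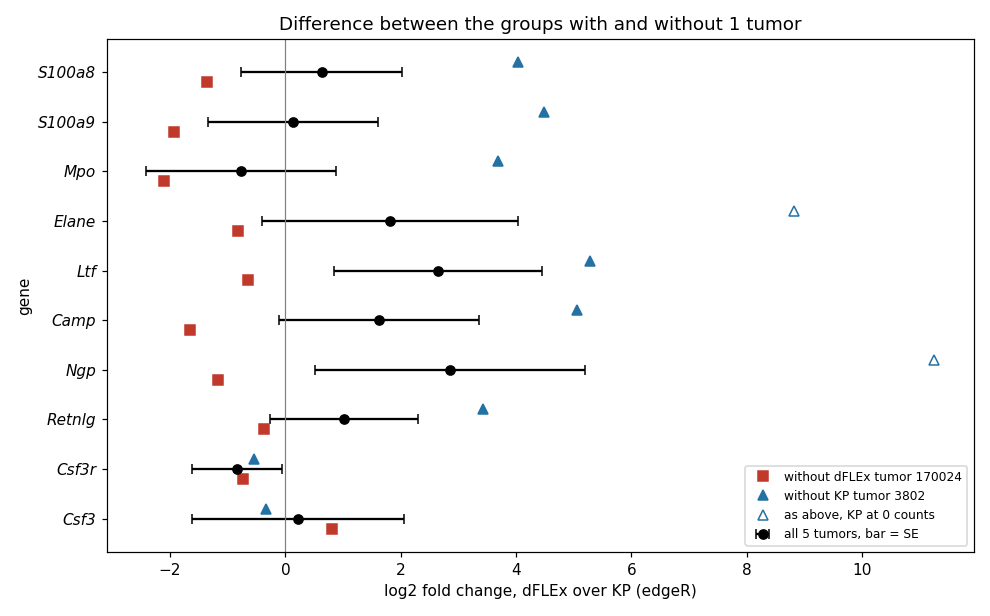
Log2 fold change of dFLEx over KP for each neutrophil gene by edgeR, with all 5 tumors (black, bar = SE), without dFLEx tumor 170024 (red squares) and without KP tumor 3802 (blue triangles). Open triangles mark Elane and Ngp, whose remaining KP tumor had 0 counts, so that the position is set by the prior count and is no measured fold; without 170024, 9 of the 10 genes lay below 0.

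Leaving out 170024 reversed the sign of 7 of the 10 log2 fold changes, and leaving out either KP tumor reversed 2. Their size also rested on 3802. Without 170024, 1 of the 10 log2 fold changes was above 0, with S100a8 at -1.36, S100a9 at -1.94 and Elane at -0.82. Leaving out 3802 instead gave 8 of 10 above 0, with S100a8 at 4.04, S100a9 at 4.49 and Ltf at 5.29. They were not the same 8 as with all tumors, since Mpo turned from -0.77 to 3.69 and Csf3 from 0.22 to -0.33. For 7 genes each dFLEx tumor then lay above the remaining KP tumor. The share of all tested genes with that order was not counted, and 1 KP tumor is easier to exceed than 2. In neither case did a neutrophil gene pass an adjusted p of 0.05, and in the second the lone KP tumor is assumed to vary as the dFLEx tumors do. The mean summed level of the 10 genes was 38.4 CPM in dFLEx and 11.4 CPM without 170024. In KP it was 27.0 CPM, and 6.85 CPM in the tumor that remains without 3802.

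Levels of different genes were compared per kilobase of exon (RPKM, on the same TMM scale). S100a9 was the highest of the 10 in 4 tumors, at 51.9 RPKM in 170024, 37.1 in 3802, 5.72 in 170019 and 4.63 in 170025. In tumor 3800 Csf3r came first at 1.44 RPKM, ahead of S100a9 at 0.927 RPKM. S100a9 exceeded S100a8 in every tumor, by 1.30-fold in 170025 to 2.79-fold in 3802. The sum of Ltf, Camp and Ngp, set against the sum of S100a8 and S100a9, was 38.9% in 170024. It was 17.1% in 170025, 8.18% in 170019, 12.7% in 3800 and 10.2% in 3802. Thus the 2 tumors with much calprotectin RNA differed in these 3 genes: 170024 had 1.55 times the calprotectin level of 3802 but 5.89 times its summed level of Ltf, Camp and Ngp. The sum in 3800 rested on 16 counts and that in 170019 on 27 counts. Mpo plus Elane amounted to 0.102 times the summed level of Ltf, Camp and Ngp in 170024 and 0.304 times in 3802. Calprotectin over Csf3r ranged from 1.10 in 3800 to 106 in 170024, with 24.5 in 3802. For scale, the pooled olfactory and vomeronasal receptor genes stood at 0.106 RPKM in 3802, against 0.283 RPKM for Ltf and 0.537 RPKM for Elane there, and at 0.00276 to 0.0238 RPKM in the other tumors. Whether that background contributes to the neutrophil genes of 3802 was not tested.

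**Figure D3:**
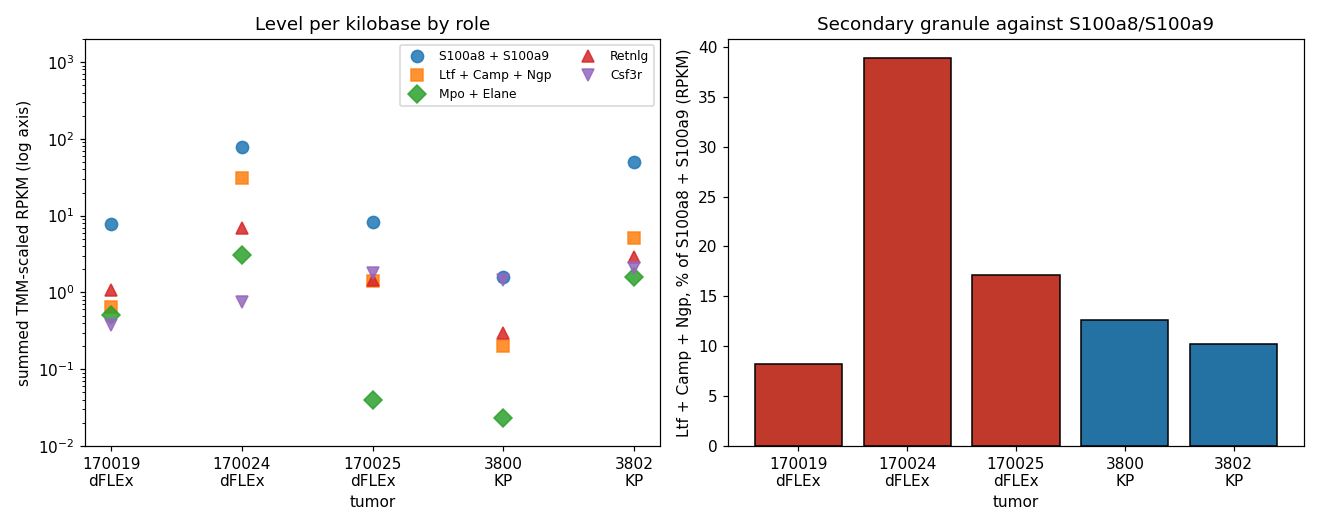
Left, summed TMM-scaled RPKM (log axis) of the neutrophil genes by role in each of the 5 tumors. Right, the summed level of Ltf, Camp and Ngp as a percentage of that of S100a8 and S100a9 in dFLEx (red) and KP (blue) tumors, which was 38.9% in 170024 and 8.18% to 17.1% in the others.

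Likeness of pattern was measured as the root-mean-square difference of log2(CPM + 0.5), centred on the mean of the 5 tumors, over the 15256 genes that averaged 1 CPM or more. It is a description over 5 tumors that share libraries and scaling. Among the neutrophil genes themselves, S100a8 lay at 0.42 from both S100a9 and Camp, and Ngp at 0.34 from Ltf and 0.37 from Camp. Csf3r lay at 1.72 from S100a8 and 1.97 from Ngp. Outside the set, the genes nearest to S100a8 were Prkag3 (0.28), Nmrk2 (0.40), Tpbgl (0.44), Fbxl22 (0.52) and 2310065F04Rik (0.56). Prkag3 encodes a subunit of AMP-activated protein kinase found in skeletal muscle, and it was at 54.7 CPM in 170024 and 2.79 CPM in 3800. Nearest to Ngp were Prg2 (0.50), Nmrk2 (0.50), Ckmt2 (0.61), 2310065F04Rik (0.72) and Nexn (0.74). Prg2 encodes the major basic protein of eosinophil granules and was at 5.39 CPM in 170024 but 0.0497 to 0.813 CPM elsewhere, while Ckmt2 is the mitochondrial creatine kinase of striated muscle. Nearest to Csf3r were Mrc1 (0.09), Hykk (0.17), Ptafr (0.18), Pik3cd (0.18) and Inpp5d (0.20). Mrc1 encodes the macrophage mannose receptor and was at 21.5, 37.4 and 97.5 CPM in the dFLEx tumors and at 67.1 and 91.8 CPM in KP. Csf3r is also transcribed by monocytes and macrophages, as general background.

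Skeletal muscle genes had their highest level in the same tumor as the granule genes. Their summed level was 32240 CPM in 170024, 8109 and 9116 CPM in the other dFLEx tumors, and 1328 and 4005 CPM in KP tumors 3800 and 3802. Acta1, skeletal actin, was at 3010, 10350 and 3013 CPM in dFLEx and at 532 and 1402 CPM in KP. All 7 muscle genes had a log2 fold change above 0, with a median of 2.54. By edgeR 0 passed an adjusted p of 0.05, while 6 had an unadjusted p under 0.05, against 10.6% of all tested genes. Without 170024 the median was 1.62. Myh4 had a log2 fold change of 3.17, Mylpf of 2.78 and Myh1 of 1.97. The part of muscle content in the neutrophil gene levels was not tested.

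Of 141 further genes on 13 lists of neutrophil biology and of other cell types, 138 were matched to the table, 126 were tested and 0 passed an adjusted p of 0.05 by edgeR, while 35 had an unadjusted p under 0.05, against the 10.6% of all tested genes. Of 5 tested primary granule genes, 2 were highest in 170024, 2 had a log2 fold change above 0 and the median was -0.32. That median was above 0 when any tumor but 170025 was left out. It was 0.19 without 170019, 0.50 without 170024, 0.37 without 3800 and 3.54 without 3802. The filter on low counts was rerun in each of these fits, so the medians need not rest on the same 5 genes. The change of sign therefore cannot be assigned to the tumor left out. Prtn3, proteinase 3, the neighbour of Elane, was at 5.37, 3.69 and 1.70 CPM in dFLEx and at 0.228 and 1.503 CPM in KP, so it was separated between the groups without being highest in 170024. Serpinb1a, an inhibitor of neutrophil serine proteases, had a log2 fold change of 0.90, Fcnb -0.75 and Prss57 -2.32. Ctsg, cathepsin G, was at 0 to 0.243 CPM in all tumors.

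Among 12 further secondary and tertiary granule genes, 6 had a log2 fold change above 0 and 6 below, with a median of 0.53. Of these 12, 3 were highest in 170024 and 4 in 3802, where 8.16% and 31.6% of all tested genes were highest. With no overlap between the groups, 4 of the 12 were higher in dFLEx, against 13.7% of all tested genes. The opposite order held for 2 of the 12, Olfm4 and Ly6g, against 11.7% of all tested genes. Lcn2, lipocalin 2, was at 10.5, 15.5 and 5.93 CPM in dFLEx and at 0.188 and 2.64 CPM in KP, with a log2 fold change of 2.94 and an edgeR adjusted p of 0.412. Ceacam10 was at 32.0, 7.04 and 13.9 CPM in dFLEx and at 0 and 0.528 CPM in KP. The level of this list was carried by Mmp9, gelatinase B, named here after its values were seen, at 822, 523 and 249 CPM in dFLEx and at 25.9 and 136 CPM in KP. Its highest tumor was 170019, where the 10 genes summed to 8.73 CPM. Ly6g, the defining surface marker of mouse neutrophils, was scarce in all tumors at 0.0746, 0.485 and 0 CPM in dFLEx and 0.510 and 0.772 CPM in KP. Olfm4 had the smallest log2 fold change, -2.56.

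Of 19 tested genes of mature neutrophils, 6 had a log2 fold change above 0 and 13 below, with a median of -1.22. Without tumor 3802 that median was 0.67. Cxcr2, the chemokine receptor that directs neutrophils to tissue, was at 0.448, 0.971 and 1.16 CPM in dFLEx and at 0.242 and 0.813 CPM in KP. Slpi, a secreted protease inhibitor also made by epithelia, was at 304, 164 and 21.6 CPM in dFLEx and at 0.967 and 74.8 CPM in KP. The formyl peptide receptor gene Fpr2 was at 0.224, 0.537 and 0.315 CPM in dFLEx and at 1.57 and 13.6 CPM in KP, with a log2 fold change of -4.38 and an edgeR adjusted p of 0.153, the lowest on any list. Fpr1 had a log2 fold change of -3.21 and Wfdc21 of 1.80. Il1b was at 1.59, 6.76 and 3.96 CPM in dFLEx and at 9.99 and 18.4 CPM in KP. In 13 of these 19 genes the highest tumor was 3802, and in 0 was it 170024, where 31.6% and 8.16% of all tested genes were highest in those tumors.

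Genes of G-CSF signalling went both ways: 5 of 15 had a log2 fold change above 0 and the median was -0.35. A log2 fold change of 1.39 was found for Stat5b, a transcription factor activated by the receptor, and 0.69 for Socs3, a feedback inhibitor of it, with -1.37 for Lyn and -2.33 for Gfi1. Of 12 tested genes for neutrophil recruitment, 5 were above 0, with a median of -0.34. The neutrophil chemokine Cxcl2 was at 0.0995, 0.590 and 0.983 CPM in dFLEx and at 1.61 and 4.88 CPM in KP, with a log2 fold change of -2.52. Cxcl1 was at 3.08, 3.73 and 3.59 CPM in dFLEx and at 5.56 and 5.85 CPM in KP, and Cxcl5 at 4.83, 2.69 and 2.72 CPM against 0.645 and 6.83 CPM. Cxcl3 was at 10.5 CPM in 3802 and at 0.249 to 0.457 CPM elsewhere, with a log2 fold change of -4.04. Ppbp had a log2 fold change of 1.15 and Lif of 3.44. Of the 12 tested recruitment genes, 5 were highest in 3802 and 0 in 170024, where 31.6% and 8.16% of all tested genes were highest. Those 5 included Cxcl1, Cxcl2, Cxcl3 and Cxcl5, whereas Ppbp was highest in 170025 at 1.61 CPM. Among 5 receptors of S100a8 and S100a9, 3 were above 0 and the median was 0.76. Ager had a log2 fold change of 1.64, Cd36 of 1.44, Ly96 of -0.46 and Tlr4 of -1.66.

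Genes of other leukocytes were lower in dFLEx than in KP by their list medians, without any gene passing the adjusted p. Macrophage and monocyte genes summed to 1269 to 1455 CPM in dFLEx and to 3041 and 5931 CPM in KP. Of these 12 genes, 10 had a negative log2 fold change, and the median was -1.55. Csf1r was at 37.3, 69.7 and 84.9 CPM in dFLEx and at 156 and 109 CPM in KP, and Adgre1 at 12.2, 17.5 and 23.2 CPM against 62.6 and 61.1 CPM. Ly6c2 had a log2 fold change of -4.07, C1qa of -2.45 and Cd68 of 0.24. All 8 pan-leukocyte genes were below 0, with a median of -1.43, or -0.59 without 3802. Ptprc, which encodes CD45, was at 11.4, 14.2 and 22.9 CPM in dFLEx and at 53.3 and 70.7 CPM in KP, and Itgam at 7.74, 17.9 and 16.3 CPM against 20.1 and 60.8 CPM. Laptm5 had a log2 fold change of -1.69, Itgb2 of -0.88 and Tyrobp of -0.52. High calprotectin in 170024 was measured beside a Ptprc level of 14.2 CPM, while KP tumor 3800, with 53.3 CPM of Ptprc, had the least S100a8 and S100a9. Tumor 3802 went the other way, with the most Ptprc, 70.7 CPM, and the second highest S100a8 and S100a9, 9.22 and 19.4 CPM.

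All 10 lymphocyte genes were highest in 3802, and 10 of 10 log2 fold changes were negative, the median of -2.14 becoming 0.09 without that tumor. Cd3e was at 1.72, 1.61 and 0.567 CPM in dFLEx and at 1.17 and 9.43 CPM in KP, and Cd79a at 1.77, 2.03 and 1.55 CPM against 0.322 and 15.03 CPM. Cd3d had a log2 fold change of -3.65, Nkg7 of -3.02 and Cd4 of -0.13. Of 7 tested eosinophil, basophil and mast cell genes, 2 were above 0 and the median was -1.07, or -0.12 without 3802. Prg2 had a log2 fold change of 2.16, Prss34 of 4.96, Siglecf of -1.27 and Tpsb2 of -1.30. Of 8 tested genes of marrow precursors 4 were above 0, with a median of 0.08. Their summed level was 726, 964 and 342 CPM in dFLEx and 64.0 and 1455 CPM in KP, so it was highest in 3802 and 170024 and lowest in 3800, as was the sum of the 10 genes apart from the order of the first 2. That sum was carried by 2 globin genes, Hba-a1 and Hbb-bs. Hbb-bs, named here after its values were seen, was at 461 CPM in 170024 and 708 CPM in 3802. Of the 8 tested genes, 4 were highest in 3802, 2 in 170024, 1 in 170019 and 1 in 170025. Hba-a1, alpha globin, was at 351, 494 and 122 CPM in dFLEx and at 18.9 and 741 CPM in KP, so it was highest in 3802 and 170024, the 2 tumors with high S100a8. Dntt had a log2 fold change of 1.82, Alas2 of 1.54, Gata1 of -1.39 and Igll1 of -2.69. Keratinocyte genes had a median of -0.90, with 1 of 6 above 0. Krt5 was at 2.76, 0.485 and 0.227 CPM in dFLEx and at 0.282 and 6.14 CPM in KP, and Krt14 at 3.23, 0.260 and 0.0630 CPM against 0.0134 and 7.23 CPM. Krt10 had a log2 fold change of 0.65, Krt17 of -0.33, Krt14 of -1.61 and Krt16 of -2.36. Several of these list medians changed sign when 1 tumor was left out, in fits where the genes that passed the filter can also differ. Without 3802 they were 0.37 for recruitment and 1.79 for keratinocytes, fitted against 3800 alone. Without 3800 the median for G-CSF signalling was 0.38 and that of the marrow list -0.53. The part of blood, skin or muscle content in the neutrophil gene levels of 170024 and 3802 was not tested.

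**Figure D4:**
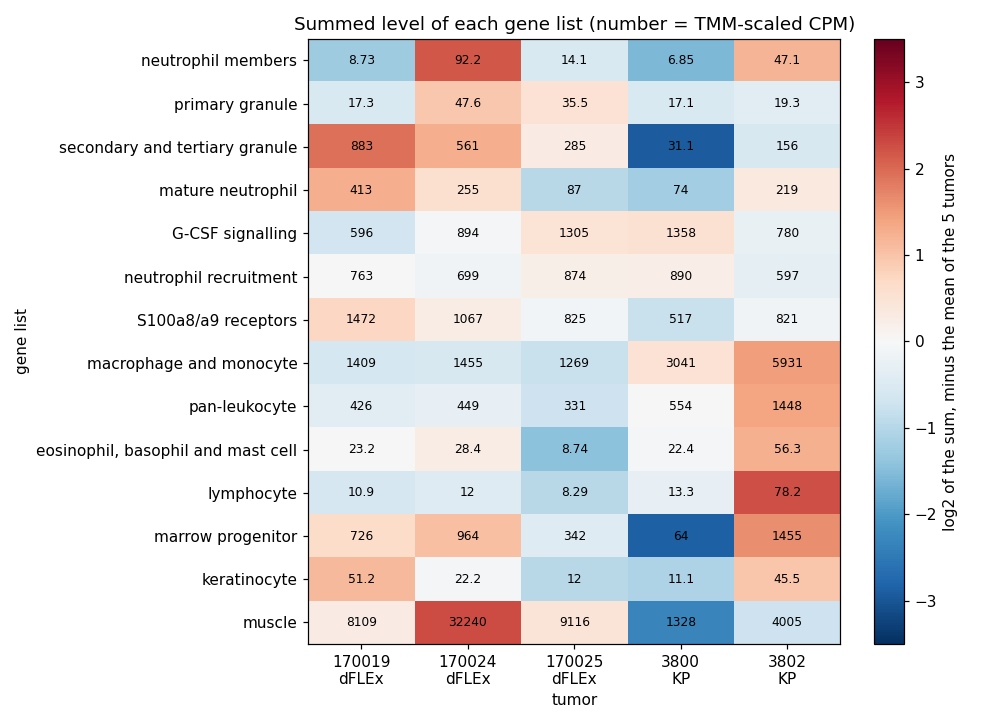
Summed level of each gene list in the 5 tumors, as TMM-scaled CPM (numbers), coloured by the log2 of the sum minus its mean over the 5 tumors. The 10 neutrophil genes were highest in 170024 (92.2 CPM) and 3802 (47.1 CPM), muscle genes in 170024 (32240 CPM), and lymphocyte genes in 3802 (78.2 CPM).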

How the data were processed

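RNA from 3 dFLEx and 2 KP tumors was sequenced as paired-end, rRNA-depleted libraries. Per the submitters' processing notes and the file headers, the authors trimmed reads with Trimmomatic (0.39), aligned them with STAR (2.7.10a) to GRCm39 with a CIC::DUX4 contig and counted them with featureCounts (Subread 2.0.3). The deposited values are whole, unnormalized counts per gene in 9 libraries, with mates counted singly and without strand, so reads of a gene and its antisense partner cannot be told apart. The second library of KP tumor 3802 was not analysed here.

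Duplicates were summed per tumor, since p-values over libraries would measure technical spread. Features were kept by filterByExpr, library sizes were recomputed over kept features, TMM-scaled and tested with edgeR (4.0.16; glmQLFit, glmQLFTest), dFLEx against KP, with Benjamini-Hochberg adjustment over all 24743 tested features and a threshold of 0.05. Standard errors of the edgeR log2 fold changes were derived as the absolute log2 fold change over the square root of the test's F statistic. The fit was tested on simulated data. DESeq2 (1.42.0) and limma-voom (3.58.1), other scalings, filters and left-out tumors were alternatives. With a tumor left out the filter was rerun, so a list median can then rest on a different set of genes. TMM moved log2 fold changes by a median of 0.30 above those from library totals (-0.30 for totals minus TMM). Symbols came from GENCODE vM39 by Ensembl identifier (56017 of 56750 matched).

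The 10 genes and all lists were chosen with earlier results of these data known. From each other list the text names genes with an adjusted p under 0.05, otherwise the 2 largest and 2 smallest log2 fold changes and preset defining markers; a few of these, and part of the KP genotype, are not reported here. The 5 nearest patterns used a pseudocount of 0.5 CPM.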

Additional observations from a re-analysis of the deposited data

How the results depend on the processing

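No neutrophil gene passed an adjusted p of 0.05 under any of the 16 alternatives, and the lowest adjusted p was 0.127, for Ngp with edgeR and no filter on low counts. Of 154 alternative log2 fold changes of the 10 genes, 134 kept their direction and 20 reversed. The number of all genes called was 45, and 1396 by DESeq2 on tumor sums, 3344 by edgeR with libraries as samples, 4828 by DESeq2 with libraries as samples, 543 by limma-voom, where tumor was a random effect, 880 with no filter and 80 when genes had to average 1 CPM. The duplicate number as a replicate block, which pairs libraries only by a number, gave 2476. Leaving out 1 tumor gave 0 (without 170019 or 170024, where edgeR gave 1939 and 1414 genes with an unadjusted p under 0.05) to 414 (without 3802).

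S100a9 reversed to -0.011 with DESeq2 on tumor sums, -0.058 with DESeq2 size factors, -0.22 with library totals, -0.44 with the upper quartile, -0.26 when genes had to average 1 CPM and -0.090 with the first library of each tumor. Csf3 reversed to -0.018 with DESeq2 on libraries, -0.12 with library totals and -0.083 with the first library. Leaving out 1 tumor gave log2 fold changes of -1.36 to 4.04 for S100a8, -1.94 to 4.49 for S100a9, -0.33 to 1.35 for Csf3, -2.11 to 3.69 for Mpo, -0.82 to 8.83 for Elane, -0.65 to 5.29 for Ltf, -1.65 to 5.06 for Camp, -1.17 to 11.25 for Ngp and -0.37 to 3.43 for Retnlg. The upper ends for Elane and Ngp rest on the prior count. The number of tested neutrophil genes above 0 was 8, then 5 when genes had to average 1 CPM (8 genes tested) and 1 to 8 on leaving out 1 tumor. The number higher in every dFLEx tumor was 0 to 7, and the number lower 0 to 2, on leaving out 1 tumor. These 3 counts were chosen after seeing the data, and with 1 tumor left out the matching shares of all tested genes were not counted. Beyond the left-out tumors, the causes of these changes were not tested. Csf3, with 2 to 20 counts a tumor, is limited by counting error.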
